A study of Mus musculus with 6 samples.

Results

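The genes described here, which encode proteins of the cytosolic ribosome, were measured in neuron-enriched sensory ganglia of mice given a leptin-coding or control virus. They were chosen by name, as symbols of the large subunit (Rpl), the small subunit (Rps), the stalk proteins Rplp0, Rplp1 and Rplp2, Rpsa and Fau, without pseudogene names and the Rps6k kinases, and with a mean of at least 1 TPM (a transcript's portion of the library after correction for length, where all portions add up to 1000000) over all 6 libraries. Of 54309 genes in the deposited table, 91 names matched and 85 reached that level. These were 50 large-subunit and 35 small-subunit genes, and 6 of them are rare paralogs, that is, second copies of a ribosomal protein gene with a diverged sequence. The 6 names below the minimum were Rpl10l with a mean of 0.28 TPM, Rps3a2 with 0.27 TPM, Rpl3l with 0.23 TPM, Rpl6l with 0.09 TPM, and Rpl32l and Rps12l1, which were listed at 0 in every library. Just inside the minimum lay Rpl39l with a mean of 1.99 TPM and Rps3a3 with 2.20 TPM.

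The 6 libraries form the groups AAV-Leptin-GFP and AAV-GFP, with 3 each. A virus used to carry genes into cells (adeno-associated virus, AAV), coding for leptin with GFP or for GFP alone, had been put into both sciatic nerves of C57bl/6 males of 8 to 10 weeks. After a further 4 weeks every mouse of both groups had its dorsal columns cut, which severs the central branch of sensory axons, and lumbar dorsal root ganglia (DRG, levels 4 to 6) were collected 24 hours later. There was no uninjured group. The promoter of the virus and the share of neurons it reached are not given in the sources used here. The ganglia were dissociated and enriched for neurons on an albumin gradient before stranded polyA RNA libraries were made. The labels do not say whether a library is 1 animal or a pool, so p-values measure the spread between libraries, which may be technical.

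The ribosome joins a small subunit, which reads the messenger RNA, to a large subunit, which forms the peptide bond, and almost every ribosomal protein is needed in a single copy per ribosome. In mammals most messages for these proteins begin with a C and an unbroken run of pyrimidines, the 5′ terminal oligopyrimidine (TOP) tract, through which LARP1 and mTORC1 control their translation. Sensory neurons keep ribosomes in the cell body and carry some into axons, where local protein synthesis takes place after injury.

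Sequence around the RefSeq start of some of these genes is shown first, with and without a match to the tract. RefSeq promoters (build GRCm38.p6) were found for 63 of the 85 genes. The motif searched on the transcribed strand was a C followed by at least 4 further letters that are each C or T, with the C no more than 5 bases from the RefSeq start. It was found in 29 of the 63, or 46.0%, against 18.5% of all 27025 promoters in the table and 20.2% of the 11121 promoters of tested genes. The windows below run from 10 bases before the RefSeq start through the 20 bases that begin there. RefSeq and GENCODE M21 starts can differ. The Rpl27 window ends at 101442264, before the GENCODE gene start at 101442298. The Rpl11 window ends at 136053403, inside a GENCODE gene that begins at 136053428 on the minus strand. A window without a match therefore does not show that the message lacks the tract. Nor are the shares above shares of TOP messages. Capitals mark the C and its pyrimidine run. The first 5 windows hold a match and the last 3, without capitals, do not, and the choice does not follow the shares above.
Rps6, chr4:86857348-86857377 (minus strand): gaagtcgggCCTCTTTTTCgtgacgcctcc
Rplp2, chr7:141447641-141447670 (plus strand): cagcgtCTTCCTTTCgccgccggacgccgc
Rpl39, chrX:37085203-37085232 (minus strand): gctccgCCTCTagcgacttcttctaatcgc
Rps27, chr3:90213629-90213658 (minus strand): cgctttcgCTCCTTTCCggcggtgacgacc
Rps27l, chr9:66946076-66946105 (plus strand): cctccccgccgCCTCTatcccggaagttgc
Rpl39l, chr16:10170218-10170247 (plus strand): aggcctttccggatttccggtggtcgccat
Rpl27, chr11:101442235-101442264 (plus strand): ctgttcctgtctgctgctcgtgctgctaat
Rpl11, chr4:136053374-136053403 (minus strand): ccataaggccacggggccggaagtctccct

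The following 3 paralog pairs have coding sequences of equal length, which shows how far reads from each can be told apart. Rps27 and Rps27l have coding sequences of 255 bases that differ at 61 bases (76.1% identity). Rpl39 and Rpl39l have 156 bases each and differ at 23 (85.3% identity). Rpl36a and Rpl36al, of 321 bases each, differ at 39 (87.9% identity). The first 2 pairs are printed from the GENCODE M21 transcripts (GRCm38), with the differing bases in capitals. The sequence printed for Rps27 is also, base for base, the coding sequence inside Rps27rt, a gene on another chromosome that is described further on.
Rps27: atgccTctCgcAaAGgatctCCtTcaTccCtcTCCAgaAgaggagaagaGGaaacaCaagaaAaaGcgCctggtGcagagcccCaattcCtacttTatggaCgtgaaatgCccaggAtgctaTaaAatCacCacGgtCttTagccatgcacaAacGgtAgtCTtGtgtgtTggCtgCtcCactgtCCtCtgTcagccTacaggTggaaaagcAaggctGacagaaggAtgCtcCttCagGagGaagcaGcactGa
Rps27l: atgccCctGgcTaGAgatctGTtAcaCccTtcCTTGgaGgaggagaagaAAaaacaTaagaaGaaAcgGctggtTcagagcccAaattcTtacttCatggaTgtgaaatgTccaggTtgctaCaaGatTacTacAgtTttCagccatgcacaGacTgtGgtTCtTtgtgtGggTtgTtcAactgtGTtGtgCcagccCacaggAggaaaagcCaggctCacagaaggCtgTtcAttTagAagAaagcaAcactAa
Rpl39: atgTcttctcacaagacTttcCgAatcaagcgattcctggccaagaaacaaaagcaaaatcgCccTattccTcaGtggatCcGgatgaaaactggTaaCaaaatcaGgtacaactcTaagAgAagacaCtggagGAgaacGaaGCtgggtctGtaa
Rpl39l: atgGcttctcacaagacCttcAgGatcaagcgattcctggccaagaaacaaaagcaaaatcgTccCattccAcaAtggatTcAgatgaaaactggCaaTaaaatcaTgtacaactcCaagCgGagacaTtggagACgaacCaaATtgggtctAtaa

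Lep was seen only in the AAV-Leptin-GFP libraries, at low levels, and sensory neuron markers were abundant in all libraries. Lep was listed at 0.751, 0.547 and 3.56 TPM in the AAV-Leptin-GFP libraries and had a value of 0 in every AAV-GFP library. In AAV-Leptin-GFP replicates 1 and 2 it thus lay below 1 TPM, near the floor. All 19 sensory neuron markers were measured, with summed levels of 26818 to 27486 TPM in AAV-Leptin-GFP and 27385 to 28916 TPM in AAV-GFP libraries. The 12 satellite glial markers summed to 7990 to 8856 TPM in AAV-Leptin-GFP and 8908 to 10130 TPM in AAV-GFP, and the 10 Schwann cell myelin markers to 863 to 945 TPM against 979 to 1015 TPM, so both lists were lower in every AAV-Leptin-GFP library. The 7 erythroid markers summed to 241 to 1729 TPM against 171 to 257 TPM, with the top value in AAV-Leptin-GFP replicate 3. The macrophage (13 genes), fibroblast (7) and endothelial (7) lists overlapped between the groups, and no marker was at 0 in every library. Mitochondrially encoded genes took 8.08% ± 0.949 of TPM in AAV-Leptin-GFP and 5.88% ± 0.234 in AAV-GFP libraries (SD, n = 3 each). TPM keeps no read counts, so depth is unknown. In such bulk samples fewer cells of a type and less RNA per cell cannot be told apart.

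As a whole, ribosomal protein genes took a smaller share of the RNA in AAV-Leptin-GFP libraries. Their summed share was 3.18%, 2.90% and 3.03% of TPM in AAV-Leptin-GFP, against 3.36%, 3.37% and 3.27% in AAV-GFP. Every AAV-Leptin-GFP library lay below every AAV-GFP library, with means of 3.03% ± 0.140 and 3.33% ± 0.0528 (SD, n = 3 each). The difference of -0.301 percentage points is larger than either SD, but an exact permutation of 3 against 3 libraries cannot go below p = 0.1. With the mitochondrially encoded genes left out of the total, the means were 3.30% and 3.54%. The satellite glial and Schwann cell marker sums were lower in the same libraries, and their part in the result was not tested.

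**Figure D1:**
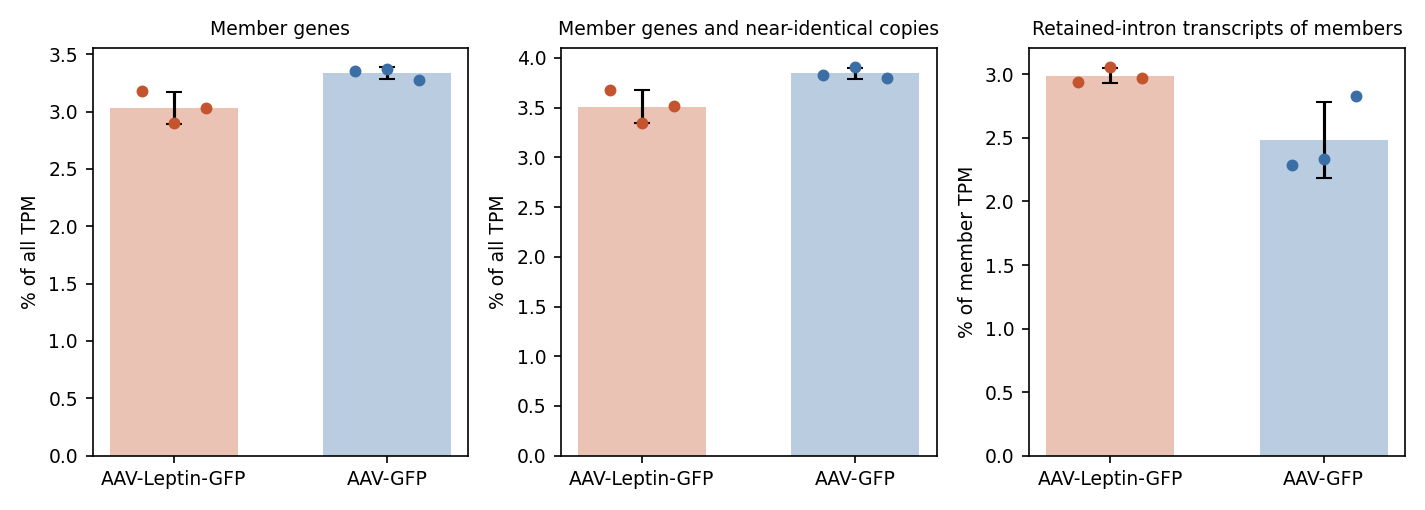
Summed share of the 85 ribosomal protein genes (left, percent of all TPM), the same with near-identical copies added (middle, percent of all TPM), and the share of retained-intron transcripts in the genes' own TPM (right, percent), with bars for means, whiskers for SD and points for the 3 libraries of each group. The left panel's points lie between 2.90% and 3.18% in AAV-Leptin-GFP and between 3.27% and 3.37% in AAV-GFP.

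Gene by gene the differences were small and lay nearly all on the same side. None of the 85 genes was called higher or lower (limma on log2(TPM + 1), two-sided, Benjamini-Hochberg adjusted p under 0.05 over 15108 genes), where the same rule called 1.61% of all tested genes, 1.54% higher and 0.0662% lower. At an unadjusted p under 0.05, 50 of the 85 were lower in AAV-Leptin-GFP (8.19% of all tested genes) and 1 was higher (11.3%). The groups did not overlap for 50 genes that were lower (11.9% of all) and 2 that were higher (13.3%). Among abundant genes a larger part was lower than among all genes, as given below. The log2 fold change was below 0 for 80 genes and above 0 for 5, with a median of -0.13, while 50.1% of all tested genes were below 0, with a median of -0.00016. In level, the median ribosomal protein gene stood at 376, 353 and 366 TPM in AAV-Leptin-GFP and 405, 407 and 390 TPM in AAV-GFP libraries.

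Abundant genes in general were also on the lower side. The 1884 other tested genes that averaged 100 TPM or more had a median log2 fold change of -0.07, and 1450 of them were below 0. At an unadjusted limma p under 0.05, 534 of the 1884 were lower and 92 higher. Without overlap, 668 were lower and 91 higher. All 78 ribosomal protein genes at that level were below 0, with a median of -0.13. Of these 78, 50 were lower at that p and 50 were lower without overlap. The 7 below that level split into 2 below and 5 above 0. The count depends on the scaling. Quantile normalization moved the median to -0.06, with all tested genes at -0.04, and left 5 genes lower at an unadjusted p under 0.05. Leaving out the mitochondrially encoded genes left 21 lower. The share of all tested genes at that p is not given here for either setting.

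**Figure D2:**
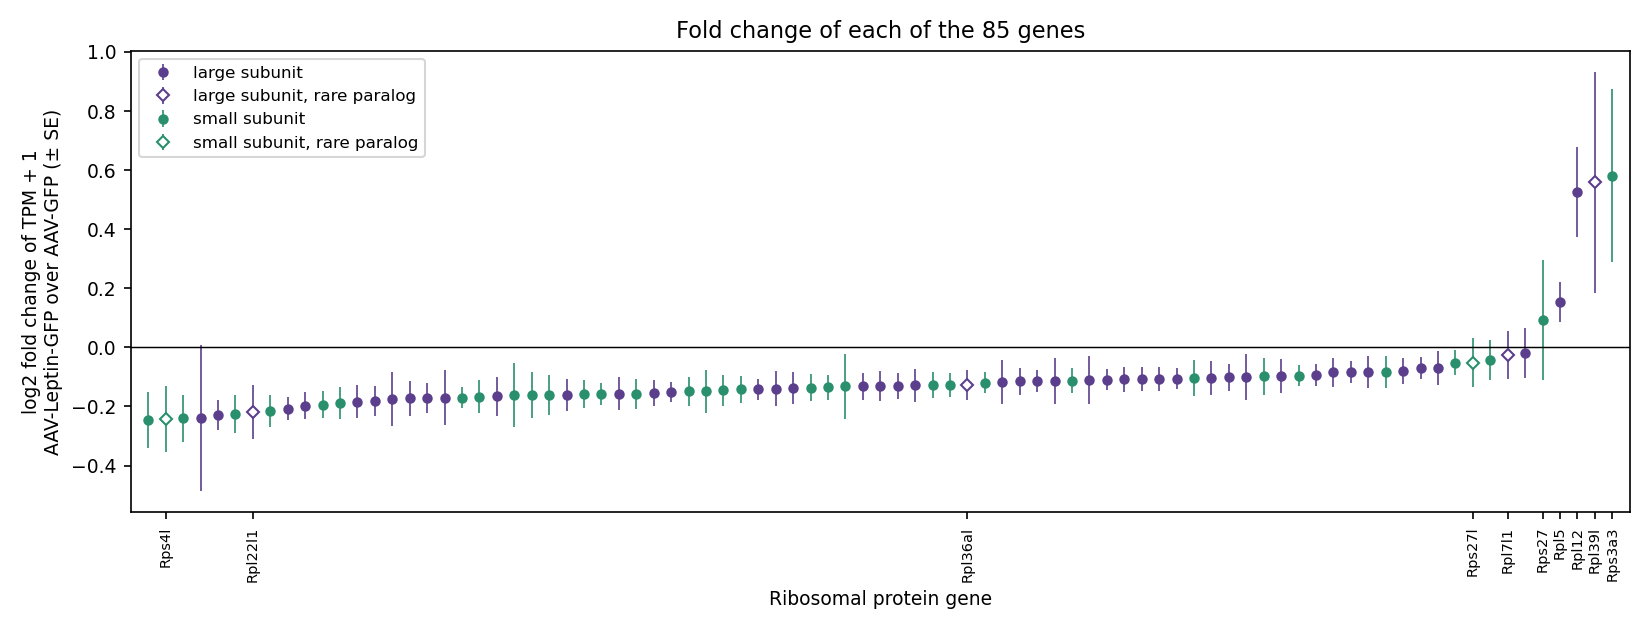
Log2 fold change of TPM + 1 (AAV-Leptin-GFP over AAV-GFP, whiskers show the SE from limma) for the 85 genes in rising order, coloured by subunit, with rare paralogs as open diamonds and names for these and for the genes above 0. From -0.25 the line of points climbs slowly to just under 0, and only Rps27, Rpl5, Rpl12, Rpl39l and Rps3a3 lie above 0.

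Both subunits had lower shares in AAV-Leptin-GFP libraries. The large-subunit genes took 1.92%, 1.75% and 1.82% of TPM in AAV-Leptin-GFP and 2.01%, 2.03% and 1.96% in AAV-GFP libraries. The small-subunit genes took 1.257%, 1.151% and 1.206% against 1.345%, 1.344% and 1.312%, so that the groups did not overlap for either subunit. The ratio of large to small subunit TPM was 1.526, 1.517 and 1.510 in AAV-Leptin-GFP libraries and 1.496, 1.509 and 1.496 in AAV-GFP libraries, a separation that rests on the third decimal. The median log2 fold change was -0.12 over the 50 large-subunit genes and -0.15 over the 35 small-subunit genes. In the large subunit 47 genes were below 0 and 28 were lower at an unadjusted p under 0.05, against 33 and 22 in the small subunit.

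Among the 4 genes with the smallest p were Rpl27, Rpl11 and Rpl39. Rpl27 (chr11:101442298-101445529, plus strand, GRCm38), a large-subunit protein, had 177, 167 and 168 TPM in AAV-Leptin-GFP and 201, 194 and 196 TPM in AAV-GFP libraries. The groups stood clear of each other, and the log2 fold change was -0.21 (limma SE 0.04, adjusted p = 0.0583). With the near-identical copies described further on, it was -0.16 (limma adjusted p = 0.109). Rpl27 is called lower, at adjusted p = 0.0476 and 0.0471, with a minimum of 5 TPM and with median-ratio scaling, and at 0.0332 with a loess correction for transcript length, which calls 9 of the 85 genes lower, with Rpl11 and Rpl39 among them, and 1.38% of all tested genes. Rpl11 (chr4:136028265-136053428, minus strand), part of the 5S particle that restrains Mdm2 when ribosome assembly fails, had 395, 383 and 378 TPM in AAV-Leptin-GFP and 430, 428 and 424 TPM in AAV-GFP libraries (-0.15, SE 0.03, limma adjusted p = 0.0771). Rpl39 (chrX:37082520-37085402, minus strand), a short protein lining the peptide exit tunnel, had 265, 246 and 270 TPM against 293, 303 and 319 TPM (-0.23, SE 0.05, limma adjusted p = 0.0771). In each of these 3 genes all 3 AAV-Leptin-GFP libraries lay below all 3 AAV-GFP libraries.

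Rps12 and Rpl10 were among the 5 genes with the lowest fold changes. Rps12 (chr10:23785183-23787275, minus strand), a small-subunit protein, had 323, 300 and 292 TPM in AAV-Leptin-GFP and 405, 330 and 349 TPM in AAV-GFP libraries, without overlap (-0.24, and -0.16 without AAV-GFP replicate 1, limma adjusted p = 0.164 with all libraries). Rpl10 (chrX:74270812-74273135, plus strand), which completes the large subunit late in assembly, had 144, 67.2 and 101 TPM against 129, 102 and 123 TPM. Its fold change of -0.24 rests on AAV-Leptin-GFP replicate 2 and becomes 0.04 without it.

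The stalk of the large subunit is the acidic complex that recruits elongation factors, and none of its 3 genes was called. Rplp1, the most abundant gene of the set, had 1128, 1080 and 1138 TPM in AAV-Leptin-GFP and 1212, 1223 and 1168 TPM in AAV-GFP libraries (log2 fold change -0.11). Rplp0, its anchor on the rRNA, averaged 381 ± 19.9 TPM against 417 ± 14.7 TPM (-0.13), and Rplp2 averaged 384 ± 27.3 against 431 ± 26.9 TPM (-0.17; SD, n = 3 each). The groups did not overlap for Rplp0 and Rplp1, and overlapped for Rplp2. Rpsa, a small-subunit protein also known as the laminin receptor, had 327, 327 and 332 TPM in AAV-Leptin-GFP and 377, 369 and 354 TPM in AAV-GFP (-0.16, limma adjusted p = 0.0853). Fau, which is made as a fusion of a ubiquitin-like protein with the small-subunit protein eS30, averaged 496 ± 34.1 TPM against 533 ± 27.3 TPM, with overlap (-0.10).

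The other genes among the 4 highest levels were Rpl13a, Rpl41 and Rpl38. Rpl13a, which in human monocytes also leaves the ribosome to silence inflammatory messages, averaged 904 ± 48.5 TPM in AAV-Leptin-GFP and 1011 ± 52.3 TPM in AAV-GFP (-0.16). Rpl41, among the shortest proteins made in mammals, averaged 819 ± 52.6 TPM against 921 ± 23.3 TPM (-0.17). Both had groups that did not overlap. Rpl38, whose loss in mice alters the translation of Hox messages, averaged 686 ± 53.0 TPM against 719 ± 18.01 TPM, with overlap (-0.07), and stood at 0.0045 under quantile normalization.

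The 6 rare paralogs held the same part of ribosomal protein TPM in both groups, 2.22% ± 0.0481 in AAV-Leptin-GFP and 2.22% ± 0.0410 in AAV-GFP (SD, n = 3 each). Their median log2 fold change was -0.09, with 5 below and 1 above 0, and 2 had groups that did not overlap. Both of these were lower. Without overlap, 11.9% of all tested genes were lower, and 668 of the 1884 other genes of 100 TPM or more. Rpl22l1, the partner of the RNA-binding protein Rpl22, had 199, 154 and 189 TPM in AAV-Leptin-GFP and 205, 218 and 204 TPM in AAV-GFP libraries (-0.22, and -0.11 without AAV-Leptin-GFP replicate 2, limma adjusted p = 0.252 with all libraries), while Rpl22 averaged 214 ± 17.9 against 231 ± 19.0 TPM with overlap (-0.11). Rpl36al had 282, 262 and 286 TPM against 290, 298 and 317 TPM (-0.13), and its partner Rpl36a averaged 273 ± 4.43 against 292 ± 22.1 TPM with overlap (-0.10). In level each of these paralogs lay close to its partner, so neither was rare in these libraries.

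Rps27l, which is induced by p53 in other cells, averaged 122 ± 12.8 TPM in AAV-Leptin-GFP and 126 ± 7.16 TPM in AAV-GFP libraries (log2 fold change -0.05, and 0.03 without AAV-Leptin-GFP replicate 3). Rpl7l1, a nucleolar relative of Rpl7, averaged 42.3 ± 1.87 against 43.2 ± 4.34 TPM (-0.03), far below Rpl7 itself, which averaged 392 ± 17.4 against 425 ± 14.5 TPM (-0.12). Rps4l, annotated as a transcribed processed pseudogene, had 57.9, 41.7 and 49.3 TPM in AAV-Leptin-GFP and 61.3, 56.6 and 57.5 TPM in AAV-GFP (-0.24, and -0.13 without AAV-Leptin-GFP replicate 2, limma adjusted p = 0.287 with all libraries), while the X-linked Rps4x averaged 430 ± 15.0 against 472 ± 20.6 TPM (-0.14). Rpl39l, best known from male germ cells, was near the minimum at 1.24, 4.13 and 2.37 TPM against 0.486, 2.14 and 1.59 TPM (0.56, limma adjusted p = 0.467, with overlap). The annotated processed pseudogene Rps3a3 was similar at 1.40, 3.53 and 3.74 TPM against 1.16, 2.09 and 1.31 TPM (0.58, with overlap). Rpl3l and Rpl10l, the striated muscle and testis partners of Rpl3 and Rpl10, were below 0.5 TPM in every library. Rpl3 averaged 513 ± 18.3 against 553 ± 11.5 TPM (-0.11), and Rpl26 619 ± 28.0 against 665 ± 43.0 TPM (-0.10).

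Some ribosomal protein genes had low listed levels while near-identical copies of them elsewhere in the genome had high ones. The mouse genome carries many processed pseudogenes, copies of spliced messages put back into the genome, and 76 copies with a mean of at least 1 TPM matched a ribosomal protein coding sequence at 95% identity or more over at least 80% of its length. They belong to 47 of the 85 genes, 72 are classed as processed pseudogenes and 4 as protein-coding, and 17 have no mismatch in the aligned coding sequence. On the authors' values 21 genes had more than 10% of the combined TPM listed on copies, and 8 had more than 50%. Salmon divides reads among transcripts of the same sequence, so the split between a gene and its copy is uncertain.

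The gene with the largest part on a copy was Rps27 (chr3:90212522-90213651, minus strand), a small-subunit zinc-finger protein. It had 9.54, 7.10 and 11.9 TPM in AAV-Leptin-GFP and 10.5, 9.15 and 6.76 TPM in AAV-GFP libraries. Its single-exon copy Rps27rt (chr9:114982366-114982739, minus strand), which holds the 255-base sequence printed above, had 618, 484 and 565 TPM against 611, 641 and 628 TPM, so that 98.5% of the pair's TPM was listed on the copy. The 345-base coding transcript of Rps27 was at 0 in all 6 libraries, and retained-intron transcripts made up 86.7% to 100% of the gene's TPM in AAV-Leptin-GFP and 74.9% to 92.5% in AAV-GFP. Copies likewise held 95.04% for Rpl12 (Gm10275, mean 305 TPM), 91.6% for Rpl5 (Gm15500, 380 TPM), 83.2% for Rps23, 82.7% for Rpl10, 74.6% for Rpl27a, 61.7% for Rpl27 and 57.9% for Rpl28. Leaving out the rare paralogs and Rps3a3, the 78 remaining genes ran from 9.16 to 1158 TPM, a 126-fold range, and 6 of them were below 150 TPM. With copies added, they ran from 222 to 1164 TPM, a 5.24-fold range, with none below 150 TPM.

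**Figure D3:**
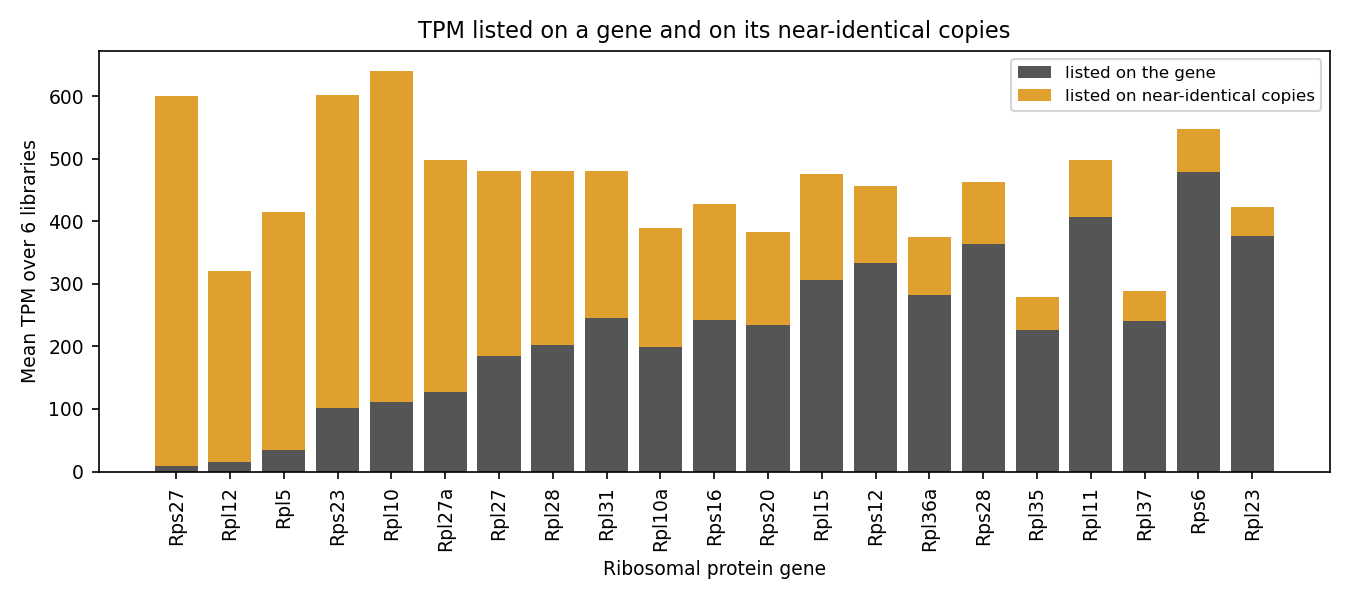
Mean TPM over the 6 libraries listed on each ribosomal protein gene (grey) and, stacked on it, on its near-identical copies (orange), for the 21 genes with more than 10% of the combined TPM on copies. For Rps27, Rpl12 and Rpl5 almost the whole bar is orange.

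The higher fold changes of these low genes turned round when the copies were added, an alternative chosen after the values were seen. Rpl12 (chr2:32961559-32965345, plus strand), part of the stalk base, had 20.7, 19.2 and 16.6 TPM in AAV-Leptin-GFP and 16.3, 11.2 and 11.3 TPM in AAV-GFP libraries, without overlap (0.53, SE 0.15, limma adjusted p = 0.125). Without AAV-GFP replicate 1 it is called higher (0.69, limma adjusted p = 0.0327). With its copy it averaged 308 ± 30.05 TPM against 333 ± 39.5 TPM, with overlap (-0.11). Rpl5 (chr5:107900502-107909005, plus strand), the 5S-particle partner of Rpl11, had 34.7, 36.4 and 39.7 TPM in AAV-Leptin-GFP and 31.8, 33.2 and 34.3 TPM in AAV-GFP (0.15, limma adjusted p = 0.270). With its copy it averaged 388 ± 27.2 against 441 ± 18.2 TPM, again without overlap but lower (-0.19, limma adjusted p = 0.152). Rps27 moved from 0.09 alone to -0.18 with its copy, at 627, 491 and 577 TPM against 622, 650 and 635 TPM. Genes that were already lower moved both ways. Rpl10 (-0.24 to -0.13), Rps12 (-0.24 to -0.14), Rps20 (-0.23 to -0.09) and Rpl27 (-0.21 to -0.16) came closer to no change. Rpl31 (-0.12 to -0.18), Rpl28 (-0.02 to -0.09) and Rpl23 (-0.18 to -0.21) moved further from it. With copies added, 82 of the 85 genes were below 0, 52 had lower groups that did not overlap and none had higher ones. Over all 15108 genes before the addition, 11.9% were lower and 13.3% higher without overlap. Of the 1884 other genes of 100 TPM or more, 668 were lower and 91 higher without overlap. No ribosomal protein gene was called, where 249 of 15032 genes were called higher and 12 lower, and 51 were lower and none higher at an unadjusted p under 0.05.

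Values are listed by transcript, so spliced messages and isoforms that keep an intron have values of their own. Salmon also divides reads among transcripts of a gene that share exons, so the split between these classes is uncertain. Of 509 transcripts of the 85 genes, 299 had a mean of at least 1 TPM and were tested. None was called (limma, adjusted p under 0.05 over 33615 transcripts), where 0.131% of all tested transcripts were, while 51 were higher and 59 lower at an unadjusted p under 0.05 (12.3% and 6.01% of all). The count of called transcripts depends on the setting. It was 60 with the loess correction for transcript length (56 of them lower), where 4.29% of all tested transcripts were called, 7 without a trend in limma (1.46% of all) and 17 without AAV-GFP replicate 1 (3.80% of all). The 179 protein-coding transcripts had a median log2 fold change of -0.14, with 139 below 0, 62 were lower without overlap (12.3% of all protein-coding transcripts tested) and 8 higher (7.89%). The 66 retained-intron transcripts had a median of 0.88, with 55 above 0, 32 were higher without overlap and 1 lower. This was not particular to ribosomal protein genes, since all 4245 tested retained-intron transcripts had the same median of 0.88, and 51.3% were higher and 1.86% lower without overlap. The 54 other non-coding transcripts had a median of 0.08.

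**Figure D4:**
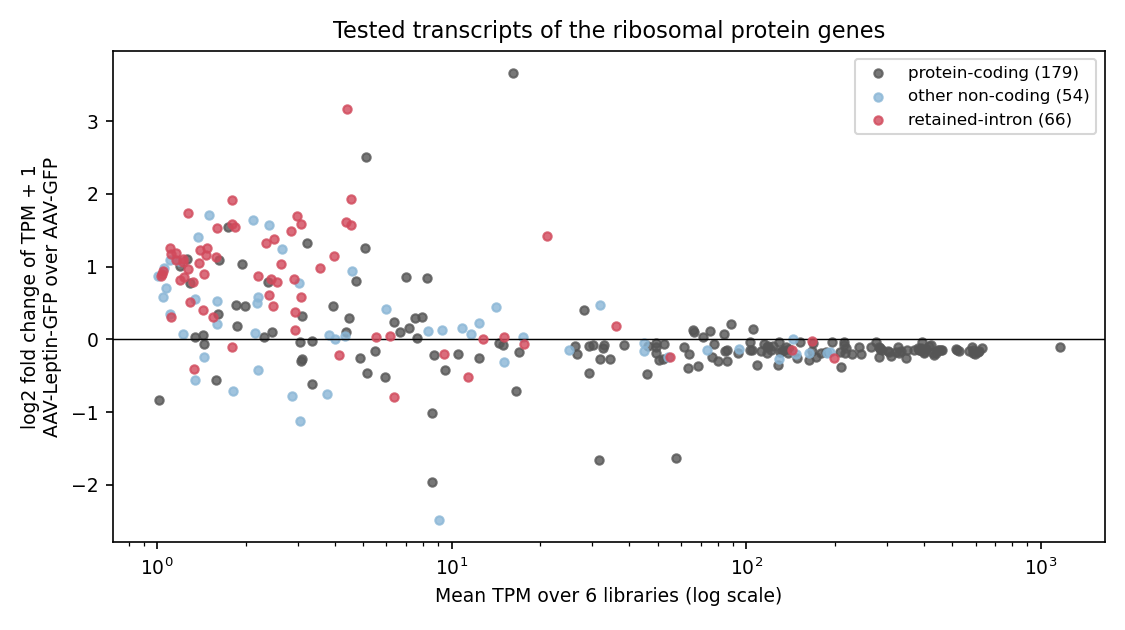
Mean TPM over 6 libraries (log scale) against the log2 fold change of TPM + 1 (AAV-Leptin-GFP over AAV-GFP) for the 299 tested transcripts of the 85 genes, by class. The abundant protein-coding transcripts lie just below 0, and of the 66 retained-intron transcripts 55 lie above 0.

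Retained-intron transcripts remained a small part of the genes' summed TPM, though not of every gene. They made up 2.94%, 3.06% and 2.97% of ribosomal protein TPM in AAV-Leptin-GFP and 2.28%, 2.33% and 2.83% in AAV-GFP libraries, without overlap, though AAV-GFP replicate 3 came close. This total includes abundant genes whose own share overlapped. The share was 85.2% against 86.6% in Rps20, 74.3% against 72.9% in Rps16 and 18.1% against 17.3% in Rpl13a. Such shares show where reads were assigned, not that most of a gene's messages kept an intron. Rpl13a stood at 26.6% in AAV-GFP replicate 3. A 582-base retained-intron transcript of Rps20 was lower without overlap, at 181 against 217 TPM. Over all genes, retained-intron transcripts took 3.53% ± 0.260 of TPM against 2.29% ± 0.200 (SD, n = 3 each). All non-coding transcripts together held 7.83% ± 0.0565 of ribosomal protein TPM against 7.23% ± 0.646, with overlap. By gene, the retained-intron share was higher without overlap in 39 of 65 genes that have such a transcript, and lower without overlap in none. Over the 7774 tested genes that have one, not matched for level, 40.5% were higher and 0.759% lower without overlap. In Rpl12 it was 40.4% ± 3.71 against 18.7% ± 4.67, and in Rpl5 20.4% ± 5.95 against 3.11% ± 1.64. Their main coding transcripts were not higher. The 1242-base transcript of Rpl12 had 4.33, 4.25 and 4.41 TPM in AAV-Leptin-GFP and 5.05, 5.14 and 6.01 TPM in AAV-GFP, and the 2045-base transcript of Rpl5 had 27.3, 26.3 and 31.2 TPM against 28.6, 30.2 and 31.4 TPM.

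The 8 transcripts with the smallest p included 4 retained-intron and 2 processed transcripts, all at low levels. A 1271-base retained-intron transcript of Rpl14, a large-subunit protein, had 6.13, 5.10 and 4.05 TPM in AAV-Leptin-GFP and 0.917, 0.596 and 1.10 TPM in AAV-GFP libraries (1.70, SE 0.21, limma adjusted p = 0.0504). The whole gene Rpl14 was at 353 ± 7.80 against 381 ± 6.39 TPM (-0.11; SD, n = 3 each). Retained-intron transcripts of Rpl24 and Rpl6, and processed transcripts of Rpl7a and Rpl27, were all higher without overlap, with means of 2.85 to 3.71 TPM in AAV-Leptin-GFP and 0.143 to 0.498 TPM in AAV-GFP. The 2 protein-coding ones went opposite ways. A 703-base transcript of Rpl31 had 8.90, 6.91 and 11.9 TPM against 2.39, 0.640 and 0 TPM (2.50, SE 0.46, limma adjusted p = 0.0663). An 886-base transcript of Rpl30 had 42.2, 34.9 and 38.3 TPM against 53.3, 53.8 and 54.3 TPM (-0.48, SE 0.08, limma adjusted p = 0.0616).

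The rest of the translation machinery was described with 6 lists. Of 13 ribosome partners such as elongation factors, 12 were below 0 (median -0.10) and none was called. The member with the smallest p, the elongation factor Eef1a1, which also carries a TOP tract, averaged 1560 ± 74.8 TPM in AAV-Leptin-GFP and 1756 ± 64.0 TPM in AAV-GFP libraries without overlap (-0.17, limma adjusted p = 0.107). Of 35 initiation factors 28 were below 0 (median -0.07) and none was called, and Eif3h, a subunit of the eIF3 complex, averaged 137 ± 3.65 against 154 ± 5.16 TPM (-0.16, limma adjusted p = 0.113). At an unadjusted p under 0.05, 6 partners and 6 initiation factors were lower, and 1 partner and no initiation factor was higher, where 8.19% of all tested genes were lower and 11.3% higher. Abundant genes outside the ribosomal protein set leaned the same way. Of 1884 such genes of 100 TPM or more, 1450 were below 0 (median -0.07). At that p, 534 of the 1884 were lower and 92 higher. The median of the initiation factors was thus no lower than that of abundant genes in general. Neither list was matched for level.

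The lists that make or control ribosomes were centred near 0. The 52 ribosome biogenesis factors had a median of 0.01, with none called, and 6 were higher and 7 lower at an unadjusted p under 0.05, where 11.3% of all tested genes were higher and 8.19% lower. The 15 tested genes of RNA polymerase I transcription had a median of 0.00056 (4 higher and 1 lower at that p, none called), and the 11 assembly chaperones had -0.05 (1 higher, none called). Their members with the smallest p were the RNA acetyltransferase Nat10 (13.4 ± 0.238 against 9.80 ± 0.602 TPM, 0.42, limma adjusted p = 0.0508), the polymerase I factor subunit Taf1d (25.2 ± 1.41 against 19.9 ± 0.420 TPM, 0.32, limma adjusted p = 0.0625) and the importin Ipo9 (37.2 ± 2.99 against 31.5 ± 1.64 TPM, 0.23, limma adjusted p = 0.155). Counting protein-coding transcripts only, all 3 turned to the other side, at -0.09, -0.14 and -0.03. Nat10 is called higher under 6 other settings (adjusted p 0.0347 to 0.0497) and Taf1d under 3 (0.0377 to 0.0454).

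Of the 21 regulators of TOP messages and mTORC1, 3 rose and none fell (median 0.01), where 1.54% of all tested genes were called higher and 0.0662% lower. Tia1, an RNA-binding protein of stress granules that binds TOP messages in starved cells, had 26.8, 33.0 and 23.3 TPM in AAV-Leptin-GFP and 10.5, 8.12 and 10.6 TPM in AAV-GFP libraries (1.41, SE 0.15, limma adjusted p = 0.0155). Its relative Tial1 averaged 57.0 ± 5.63 against 38.8 ± 3.06 TPM (0.54, limma adjusted p = 0.0391), and Tsc2, an inhibitor of mTORC1, 46.0 ± 3.80 against 31.4 ± 2.56 TPM (0.53, limma adjusted p = 0.0338). All 3 calls are lost when only protein-coding transcripts are counted, where the fold changes were 0.20 for Tia1, -0.39 for Tial1 and 0.13 for Tsc2. They are also lost with no minimum TPM (limma adjusted p = 0.0661 for Tia1, 0.0992 for Tial1 and 0.0920 for Tsc2), with the replicate number as a block, and on leaving out any library other than AAV-GFP replicate 1. Without a trend in limma, those of Tial1 (adjusted p = 0.0833) and Tsc2 (0.0720) are lost.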

How the data were processed

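RNA from 6 libraries was measured. The authors deposited TPM values per Ensembl transcript. The submitters' processing notes name Salmon 1.6.0, DESeq2 1.34.0, Trim Galore 0.6.6 and FastQC 0.11.9, without roles, and the builds mm10 and GRCm38. Which annotation release they took is not stated there. Transcript TPM were summed by gene identifier. Classes and coordinates came from GENCODE M21 (GRCm38), which holds 97.4% of the 140789 transcript identifiers.

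Genes and transcripts with a mean of at least 1 TPM were tested as log2(TPM + 1) with limma 3.58.1 (R 4.3.3 with data.table at version 1.17.8; mean-variance trend, no covariates, AAV-Leptin-GFP minus AAV-GFP), with Benjamini-Hochberg adjustment over all of them. Fold changes understate the change of low genes. An adjusted p under 0.05 is a call. On simulated data for these 15108 genes, 73 of 100 genes changed by a log2 of 1 and 6 of 100 changed by 0.25 were recovered, with 2 false calls. The changed genes were drawn from all tested genes, most of them less abundant. These counts therefore do not give the recovery for ribosomal protein genes.

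Copies were found with blastn 2.17.0 (coding sequence at least 50% of the copy's length); Rps3a3 and Rps4l had no coding sequence to search. Python 3.11.15, pandas 2.3.3 and matplotlib 3.10.9 did the rest. The genes, lists and tests were chosen with earlier results of these data known. Named genes were the rare paralogs and their partners, the stalk genes, Rpsa and Fau, the 4 highest and 4 lowest by TPM, the 5 lowest and 5 highest by fold change, the 4 genes and 8 transcripts with the smallest p, and from each other list the called members or the one with the smallest p. Some genes that this rule picks are not reported here.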

Additional observations from a re-analysis of the deposited data

How the results depend on the processing

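The median log2 fold change of the 85 genes stayed below 0 under every alternative, and ran from -0.16 to -0.10 when 1 library was left out (large subunit -0.16 to -0.09, small subunit -0.17 to -0.11). The share of all TPM stayed lower, by differences of -0.372 to -0.232 percentage points on leaving out a library. The non-coding share differed by 0.303 to 0.942 points. Quantile normalization gave medians of -0.057 for all 85 genes, -0.049 for the large and -0.061 for the small subunit, and a loess correction for transcript length gave -0.16 for the large subunit. Against 50 in the main fit, genes lower at an unadjusted limma p under 0.05 numbered 5 with quantile normalization and 17 without a trend. They numbered 21 without the mitochondrially encoded genes or without AAV-GFP replicate 2. Protein-coding transcripts only gave 34 of 83 genes tested, and the loess correction gave 64. The share of all tested genes at that p is not given for these settings, so these counts have no background beside them. Genes called numbered 1 with a minimum of 5 TPM, 1 with median-ratio scaling, 9 with the loess correction (all lower), and 0 to 1 on leaving out a library, where 2.62%, 2.44%, 3.67% and 0.0265% to 2.78% of all tested genes were called. Transcripts called numbered 3 with a pseudocount of 5, 2 with median-ratio scaling, 2 without mitochondrially encoded genes, 60 with the loess correction (56 lower), 7 without a trend, and 0 to 17 on leaving out a library, with the 17 coming without AAV-GFP replicate 1. The same settings called 1.59%, 0.610%, 0.529%, 4.29%, 1.46% and 0 to 3.80% of all tested transcripts. The cause was not tested.

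Of 859 values for the 47 genes and transcripts that the naming rule picks, 775 kept their direction and side of the threshold, 39 passed it, 25 lost it and 20 changed sign. Signs changed under quantile normalization for Rpl38 (0.0045) and Rps27 (-0.0045), without mitochondrially encoded genes for Rpl7l1 (0.0068), and with protein-coding transcripts only for Rpl12 (-0.24), Rpl5 (-0.091), Rpl7l1 (0.0032), Rps27 (-0.51), Ipo9 (-0.029), Nat10 (-0.091), Taf1d (-0.14) and Tial1 (-0.39). They changed with copies added for Rpl12 (-0.11), Rpl5 (-0.19) and Rps27 (-0.18). On leaving out a library, Rpl10 ran from -0.50 to 0.038 (above 0 without AAV-Leptin-GFP replicate 2), Rps27 from -0.069 to 0.27 (below 0 without AAV-Leptin-GFP replicate 3 or AAV-GFP replicate 3), Rps27l from -0.12 to 0.029 (above 0 without AAV-Leptin-GFP replicate 3) and Rpl7l1 from -0.11 to 0.031 (above 0 without AAV-Leptin-GFP replicate 3 or AAV-GFP replicate 2).

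With the replicate number as a block, 0 of the 85 genes were called, and 74 genes in all were called against 243. At an unadjusted limma p under 0.05, 46 of the 85 were lower and 4 higher. The share of all tested genes at that p is not given for this setting. Libraries of the same number correlated at 0.034, -0.070 and -0.024. No pairing by number was seen, though 3 libraries per group could miss a weak one.

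Depth is unknown for TPM, and 3 libraries per group leave differences of the size seen here mostly below the threshold.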
